A study of Mus musculus with 3 samples.

Results

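Late neutrophils of the mouse calvaria without Mmp8 RNA and with Ccl6 RNA were 214 of 23831 kept cell barcodes, of 25511 deposited. They were chosen by measured RNA levels: a barcode had at least 500 detected genes, at most 10% mitochondrial UMIs (unique molecular identifiers, counted molecules), S100a8 plus S100a9 at 300 CP10K or more (UMIs per 10000 UMIs of the barcode), Ngp plus Camp under 50 CP10K, 0 Mmp8 UMIs, Ccl6 at 5 CP10K or more, at least 1 Csf3r UMI, and Ccl3 plus Ccl4 under 20 CP10K. The scratch-positive library held 28 of these cells, the scratch-negative library 101 and the control library 85. Values of the genes named in this rule describe how the cells were chosen, and no result is drawn from them.

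Neutrophils leave the bone marrow after building their granules in a fixed order, azurophil first, then specific, then gelatinase, with secretory vesicles last. Transcripts for granule proteins such as Ngp, Camp and Mmp8 (the neutrophil collagenase) fade as the cell matures, while receptors such as Csf3r, the receptor for granulocyte colony-stimulating factor, and Cxcr2, which draws the cell out of the marrow, are kept. In inflamed or tumour-bearing tissue, mature neutrophils make chemokines that call in more neutrophils, interleukin 1, and interferon-response proteins. Ccl6 is a chemokine of mature mouse myeloid cells.

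The libraries were made from the skull roof of C57BL/6 mice of 8 weeks. In the scratch-positive group, called the invasive stage, a needle had scraped the periosteum off the bone before HNM007 cells, a mouse head and neck squamous carcinoma line, were implanted. In the scratch-negative group, called the pre-invasive stage, the same cells lay on bone with its periosteum in place, and the control mice had no tumour. Both tumour groups were sampled 1 week after implantation with the tumour mass cut away, and live CD45+ and CD45– cells were pooled 1:1 before 3′ single-cell sequencing. Each group had 1 library, so no difference between groups was tested against replicates, and the number of mice behind a library is not given in the sources used here. No group was scratched without tumour, so scratching, loss of the periosteum and invasion cannot be told apart. The 1:1 pooling sets the balance of CD45+ to CD45– cells, so a share of all kept barcodes is not the share in the tissue.

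The scratch-positive library stood apart in depth. Its kept barcodes had a median of 38658 UMIs, against 11817 in the scratch-negative and 9078 in the control library. The late neutrophils did not follow this: their medians were 2134, 2748 and 2708 UMIs in the scratch-positive, scratch-negative and control libraries, with 734.5, 892 and 939 detected genes. Summed over the cells they gave 69158, 328050 and 237300 UMIs, so the scratch-positive values below rest on the fewest molecules. The scratch-positive library shared 30 barcodes with the scratch-negative and 24 with the control library, and the scratch-negative and control libraries shared 16. No shared barcode was a late neutrophil in both of its libraries, and 2 late neutrophils, 1 scratch-negative and 1 control, had a barcode seen in the other of these 2 libraries. Scrublet scores barcodes for holding 2 cells. Leaving out the 663, 532 and 346 barcodes with the highest scores in the scratch-positive, scratch-negative and control libraries removed 0 of the 214. Its own calls numbered 581, 0 and 1 barcodes, so it flagged almost none in the scratch-negative and control libraries. It therefore cannot show that the late neutrophils were single cells.

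Late neutrophils made up 1.01% of S100a8/S100a9-high barcodes in the scratch-positive library (28 of 2786, exact Clopper-Pearson 95% interval 0.669 to 1.45), 1.597% in the scratch-negative library (101 of 6325, 1.30 to 1.94) and 1.61% in the control library (85 of 5276, 1.29 to 1.99). The scratch-positive interval overlapped both others in this setting. In another setting, S100a8/S100a9-high barcodes of 2000 UMIs or more were thinned to 2000 UMIs. They were classed again by the limits on Ngp plus Camp, Mmp8, Ccl6, Csf3r and Ccl3 plus Ccl4. Shallower barcodes were left out, among them 12 of 28 scratch-positive, 18 of 101 scratch-negative and 12 of 85 control late neutrophils. The shares were then 1.04% (0.685 to 1.51), 1.97% (1.64 to 2.35) and 2.41% (2.01 to 2.86), and the scratch-positive interval lay below both others. Of the late neutrophils before thinning, 16, 83 and 73 entered this set, but 27, 121 and 124 barcodes met the limits after it. Some barcodes thus met the limits only once thinned, so the thinned shares do not count the same cells. With Ccl6 at 10 CP10K or more the shares were 0.646% (0.383 to 1.02), 1.09% (0.850 to 1.38) and 1.497% (1.19 to 1.86), and the scratch-positive interval overlapped only that of the scratch-negative library. Of all kept barcodes they were 0.308%, 1.24% and 1.29% in the scratch-positive, scratch-negative and control libraries, where the S100a8/S100a9-high barcodes themselves were 2786 of 9103, 6325 of 8151 and 5276 of 6577. These intervals, like all others here, cover counting error only and not the variation between mice.

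**Figure D1:**
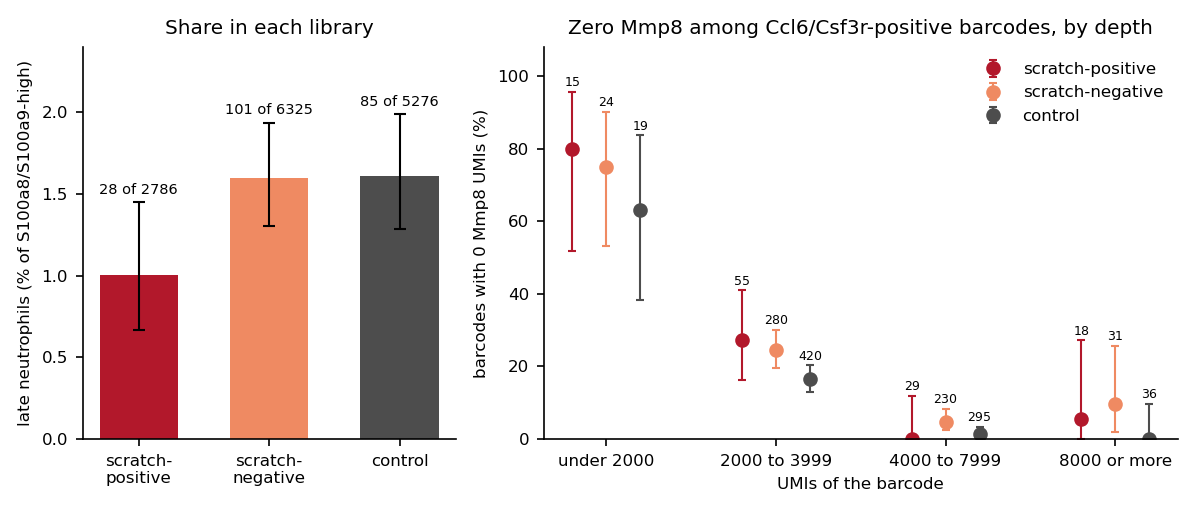
The left panel plots late neutrophils as a percentage of S100a8/S100a9-high barcodes in each library, with exact 95% binomial intervals and the counts above the bars. The right panel plots, for barcodes that met every other condition, the percentage with 0 Mmp8 UMIs by depth of the barcode, with exact 95% intervals and the number of barcodes above each point. Below 2000 UMIs the percentages were 80%, 75% and 63.2% in the scratch-positive, scratch-negative and control libraries, and at 8000 UMIs or more 5.56%, 9.68% and 0%.

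The outcome of the condition of 0 Mmp8 UMIs moved with depth. Barcodes that met every other condition and carried Mmp8 numbered 89, 464 and 685 in the scratch-positive, scratch-negative and control libraries, with medians of 9, 6 and 6 Mmp8 UMIs. Between 2000 and 4000 UMIs, 27.3% of 55 scratch-positive, 24.6% of 280 scratch-negative and 16.4% of 420 control barcodes had 0 Mmp8 UMIs, and the exact intervals were 16.1 to 41.0 for scratch-positive and 13.01 to 20.3 for control barcodes. Over all depths the percentages were 23.9, 17.9 and 11.0. A barcode with 0 Mmp8 UMIs at this depth may still hold Mmp8 RNA below detection.

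Cells just inside and just outside the other limits were close in most cases. The lowest S100a8 plus S100a9 inside was 312 CP10K in the scratch-positive, 328 in the scratch-negative and 307 in the control library, and the nearest barcodes that failed only this limit had 264, 268 and 242 CP10K. The lowest Ccl6 inside was 5.22, 5.08 and 5.18 CP10K, and the nearest outside 4.78, 4.95 and 4.07 CP10K, in the same order of libraries. The highest Ccl3 plus Ccl4 inside was 15.1, 18.7 and 19.1 CP10K, against 21.6, 22.4 and 21.0 CP10K outside. Ngp plus Camp reached 35.4, 48.4 and 43.2 CP10K inside, and the nearest outside had 607, 55.0 and 51.5 CP10K. Csf3r alone excluded 10, 11 and 6 barcodes, and the gene minimum 1 in each library.

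Neutrophil markers are given here as a description, because cells and markers were chosen with earlier results of these data known. Values outside the gate set neutrophils beside other cells and cannot show that a neutrophil is late. Of the label's 4 markers, Ccl6 and Csf3r are in the rule. Wfdc17, a secreted protein with a whey acidic protein domain, was detected in 27 of 28 scratch-positive, 88 of 101 scratch-negative and 34 of 85 control cells. Stfa2l1, a stefin-family inhibitor of cysteine proteases, was detected in 10 of 28, 31 of 101 and 21 of 85 cells, so most of the cells carried no Stfa2l1 UMI. Cxcr2 was found in 22 of 28 scratch-positive, 87 of 101 scratch-negative and 59 of 85 control cells. Among barcodes outside the S100a8/S100a9 gate, Wfdc17 was found in 16.4%, 24.6% and 19.6%, Stfa2l1 in 2.45%, 3.50% and 1.23%, and Cxcr2 in 6.41%, 7.72% and 2.998% at the far greater median depths of 52094, 15791 and 7982 UMIs in the scratch-positive, scratch-negative and control libraries. Ly6g, a surface protein of mouse neutrophils, was sparse, with UMIs in 2, 22 and 11 late neutrophils.

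RNA of other cell types was low except for monocytes and macrophages, stroma and, in 4 deep cells, several myeloid genes. All 7 dendritic cell markers had 0 UMIs in all 3 libraries. T and NK, B lineage, eosinophil, basophil and mast, and erythroid lists summed to 0 to 10 UMIs in each library. The 14 monocyte and macrophage markers summed to 49 UMIs in the scratch-positive, 575 in the scratch-negative and 95 in the control cells, which was 709, 1753 and 400 counts per 1000000 UMIs (CPM), with F13a1, Ms4a7 and Mrc1 at 0 in the scratch-positive and 9 of 14 at 0 in the control cells. The 10 fibroblast and bone markers gave 1417, 1116 and 379 CPM, against 5537, 28286 and 8355 CPM outside the gate, and the 7 osteoclast markers gave 304, 27.4 and 12.6 CPM. Carcinoma keratins and their companions gave 13, 25 and 6 UMIs over 9 genes, with Krt5, Krt14, Krt19 and Epcam at 0 in all 3 libraries.

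Monocyte list RNA at 10 CP10K or more was carried by 5 scratch-positive, 16 scratch-negative and 11 control cells, which supplied 25.5%, 22.9% and 12.3% of the UMIs. Among them were the only 4 cells above 8000 UMIs, 1 scratch-positive and 3 scratch-negative, with 13.2% and 13.6% of their libraries' late neutrophil UMIs. The scratch-positive one had 24.1 CP10K over the monocyte list and the scratch-negative ones 35.3 to 151 CP10K. Several results that changed call without these cells are given in both forms below, but this was not done for every gene.

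Differences between libraries were read from summed UMIs. A gene was called when its CPM ratio was at least 1.5-fold and the whole exact 95% interval of the ratio lay on that side of 1, over genes with at least 10 UMIs in both libraries together and without the rule genes. Scratch-positive against scratch-negative, 197 of 3312 genes were called higher (5.95%) and 137 lower (4.14%), together 10.1%. Scratch-positive against control, 304 of 2855 were higher (10.6%) and 303 lower (10.6%), together 21.3%. Scratch-negative against control, 347 of 4054 were higher (8.56%) and 297 lower (7.33%), together 15.9%. The last 2 comparisons share the control library, and the first shares a library with each.

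The balance of higher and lower calls depended on the scaling, so directions below are read against the median of all genes tested, which on the log2 ratio scale was -0.13, -0.28 and -0.10 in these comparisons. Scratch-positive against scratch-negative, 59.0% of calls were higher, against 30.8% under TMM scaling (trimmed mean of M values, with a median of all genes of -0.35), 45.1% with the rule and mitochondrial genes left out of the total and 49.0% with every cell weighted alike. Scratch-negative against control, 53.9% of calls were higher, against 45.03% with every cell weighted alike, 40.7% without the cells with monocyte RNA, 39.0% without the 4 deep cells, and 64.8% with the limit of 1000 detected genes.

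The neutrophil-attracting chemokines Cxcl2 and Cxcl3 and interleukin 1 stood highest in scratch-positive cells. Cxcl1, another such chemokine, was level between the tumour libraries at 304 CPM in scratch-positive and 299 CPM in scratch-negative cells. Its ratio of 1.02 (0.602 to 1.64) was not called, and its UMIs lay in 2 scratch-positive, 9 scratch-negative and 0 control cells. Cxcl2 and Cxcl3 are ligands of Cxcr2, and both lie on chromosome 5. Nuclear factor kappa B (NF-kB) and interferon-activated transcription factors are textbook activators of chemokine and interferon-response genes. Whether they acted on any gene here was not tested. As examples, the 250 bases before the start of Cxcl2, Cxcl3, Isg15 and Rsad2 are shown, 5′ to 3′ on the gene's own strand, from RefSeq on GRCm38.p6. Capitals mark matches on either strand to GGGNNTTTC, a core of the NF-kB site, in the first 2, and to GAAANNGAA, a core of the interferon-stimulated response element (ISRE), in the other 2.
Cxcl2: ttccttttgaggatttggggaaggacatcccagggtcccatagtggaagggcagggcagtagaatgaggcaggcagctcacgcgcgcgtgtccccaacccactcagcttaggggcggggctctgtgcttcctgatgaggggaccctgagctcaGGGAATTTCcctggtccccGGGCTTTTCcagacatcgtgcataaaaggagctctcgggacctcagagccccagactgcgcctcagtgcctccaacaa
Cxcl3: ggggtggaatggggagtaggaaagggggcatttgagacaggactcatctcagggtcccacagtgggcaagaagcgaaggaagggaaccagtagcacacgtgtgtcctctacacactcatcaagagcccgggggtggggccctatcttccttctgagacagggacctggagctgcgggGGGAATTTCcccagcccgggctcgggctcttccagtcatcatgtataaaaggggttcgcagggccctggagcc
Isg15: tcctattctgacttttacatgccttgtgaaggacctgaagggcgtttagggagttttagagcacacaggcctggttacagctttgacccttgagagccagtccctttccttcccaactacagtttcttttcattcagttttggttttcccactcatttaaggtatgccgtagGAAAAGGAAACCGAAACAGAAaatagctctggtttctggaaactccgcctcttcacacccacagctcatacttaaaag
Rsad2: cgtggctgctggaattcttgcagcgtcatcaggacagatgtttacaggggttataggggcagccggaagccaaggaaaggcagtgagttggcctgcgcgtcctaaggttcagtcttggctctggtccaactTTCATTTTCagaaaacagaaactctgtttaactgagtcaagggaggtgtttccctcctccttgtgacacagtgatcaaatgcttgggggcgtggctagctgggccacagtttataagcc
The Cxcl2 window (chr5:90903649-90903898, plus strand) held 2 NF-kB matches, 97 to 89 and 78 to 70 bases before the start, and the Cxcl3 window (chr5:90785851-90786100, plus strand) held 1, 73 to 65 bases before it. The Isg15 window (chr4:156200819-156201068, minus strand) held 3 overlapping ISRE matches between 78 and 58 bases before the start, and the Rsad2 window (chr12:26456453-26456702, minus strand) held 1, on the opposite strand, 119 to 111 bases before the start. The NF-kB letters occurred in 1223 of 32851 RefSeq promoter windows of this length (3.72%) and the ISRE letters in 2342 (7.13%). The Nfkbia window held 2 NF-kB matches and 1 ISRE match, the Gbp2 window held 1 of each, and those of Il1b, Tnf, Wfdc17, Ifitm1 and Retnlg held neither. A match describes the letters only, and no match says only that these letters are not in this window.

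Cxcl2 (ENSMUSG00000058427, GRCm38 chromosome 5, 90903871 to 90905938) stood at 27141 CPM in scratch-positive late neutrophils (exact Poisson interval 25927 to 28397), 10062 CPM in scratch-negative (9722 to 10412) and 1580 CPM in control cells (1424 to 1749). It was found in 26 of 28, 89 of 101 and 47 of 85 cells, with medians of 160, 50.2 and 3.19 CP10K and highest cells of 933, 635 and 105 CP10K. The lowest cells were at 0 in every library, so single cells overlapped while the sums did not. Scratch-positive cells had 2.70-fold more than scratch-negative cells (2.55 to 2.86) and 17.2-fold more than control cells (15.4 to 19.2), and scratch-negative cells had 6.37-fold more than control cells (5.72 to 7.10). Over all barcodes outside the gate the level was 283, 656 and 33.7 CPM in the scratch-positive, scratch-negative and control libraries, with a UMI in 53.1%, 45.5% and 6.76% of them.

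Cxcl3 (ENSMUSG00000029379, GRCm38 chromosome 5, 90786103 to 90789600) had 3890 CPM in scratch-positive, 1070 CPM in scratch-negative and 42.1 CPM in control cells, the last from 10 UMIs. It was found in 15 of 28, 19 of 101 and 5 of 85 cells, and 15, 19 and 4 of these also carried Cxcl2. Every Cxcl3-carrying cell of the tumour libraries thus also carried Cxcl2. In the scratch-negative library 32.8% of its UMIs came from a single cell. The ratio was 3.64 against scratch-negative (3.09 to 4.27) and 92.3 against control cells (49.4 to 195), and 25.4 for scratch-negative against control (13.6 to 53.4). With the limit of 1000 detected genes, which left 4, 20 and 24 cells, scratch-positive against scratch-negative turned to 0.778 and was not called.

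Il1b (ENSMUSG00000027398, GRCm38 chromosome 2, 129364570 to 129371139), the inflammatory cytokine interleukin 1 beta, was found in all 214 cells. Its level was 24712 CPM in scratch-positive, 13562 CPM in scratch-negative and 7151 CPM in control cells. Single cells ran from 30.98 to 511 CP10K with a median of 201 in the scratch-positive, from 8.01 to 670 with a median of 125 in the scratch-negative, and from 3.59 to 260 with a median of 57.8 in the control library. The ratios were 1.82 (1.72 to 1.93) for scratch-positive against scratch-negative, 3.46 (3.23 to 3.70) against control, and 1.90 (1.79 to 2.01) for scratch-negative against control.

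Of the 18 genes in the list of inflammatory cytokines and mediators, 5 of 15 tested were higher and 0 lower in scratch-positive against scratch-negative cells, with a median log2 ratio of 0.47. The 5 were Cxcl2, Cxcl3, Il1b, Il1a and Tnf. Against control, 8 of 14 were higher and 1 lower in scratch-positive cells (median 1.08), and 8 of 15 higher and 0 lower in scratch-negative cells (median 0.68). In the same order of comparisons, 10.1%, 21.3% and 15.9% of all genes were called in either direction. Il1a, interleukin 1 alpha, had 405, 128 and 16.9 CPM in scratch-positive, scratch-negative and control cells, in 7, 12 and 3 cells. Tnf, tumour necrosis factor, had 709, 110 and 139 CPM, but 65.3% of its scratch-positive UMIs were in 1 cell, and it was found in 8 of 28, 18 of 101 and 19 of 85 cells. Ptgs2, the inducible cyclooxygenase of prostaglandin synthesis, had 897, 671 and 287 CPM and was called higher in both tumour libraries against control. Il1r2, the decoy receptor that binds interleukin 1 without signalling, was the one lower gene, at 1432 CPM in scratch-positive and 2212 CPM in control cells (0.647, 0.517 to 0.803), a call lost without the 4 deep cells (0.738).

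**Figure D2:**
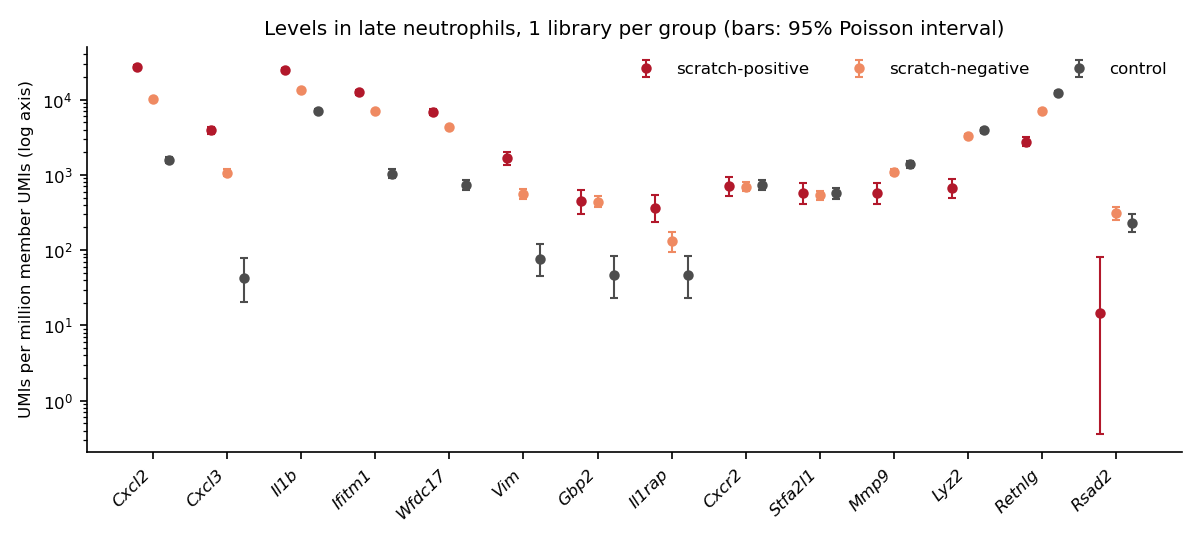
Levels of 14 genes in late neutrophils in CPM on a log axis, with the scratch-positive, scratch-negative and control libraries side by side and exact 95% Poisson intervals. Cxcl2, Cxcl3, Il1b, Ifitm1 and Wfdc17 step down across the 3 libraries, Retnlg steps up, and Cxcr2 and Stfa2l1 lie level.

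Several feedback genes switched on by NF-kB were higher in scratch-positive cells. Of 13 genes, 5 were higher and 0 lower against scratch-negative cells (median 0.17, or -0.05 under TMM scaling), 6 of 12 higher and 0 lower against control (median 0.68), and 3 of 13 higher and 0 lower in scratch-negative against control cells (median 0.37). Beside them, 10.1%, 21.3% and 15.9% of all genes were called in either direction. Nfkbia, the inhibitor that NF-kB induces against itself, had 4121 CPM in scratch-positive, 2045 in scratch-negative and 1656 in control cells, and the scratch-positive ratios were 2.01 (1.748 to 2.32) and 2.49 (2.13 to 2.91). Ier3, an immediate early gene tied to survival, had 2617, 1058 and 451 CPM and was called higher in each of the 3 comparisons. So was Sod2, the mitochondrial superoxide dismutase, at 578, 271 and 131 CPM. Icam1, an adhesion molecule of activated cells, had 304, 54.9 and 42.1 CPM, from only 21, 18 and 10 UMIs. Zfp36, which destabilises cytokine transcripts, had 1113, 619 and 510 CPM, and its call against scratch-negative cells was lost when every cell weighed the same (1.37). Tnfaip2, another gene induced by tumour necrosis factor, was level at 2386, 2356 and 2242 CPM, with ratios of 1.01 to 1.06 and intervals within 0.851 and 1.27.

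Some interferon-response genes rose with tumour, and some were lower in scratch-positive than in scratch-negative cells. Of the latter, only Rsad2, Oasl1 and Ifi27l2a were also called lower in scratch-positive against control cells. In scratch-negative against control cells, 17 of 30 were higher and 0 lower, with a median log2 ratio of 0.87. In scratch-positive against control cells, 11 of 22 tested were higher and 3 lower (median 0.64). Scratch-positive against scratch-negative, 3 of 29 were higher and 6 lower, with a median of -0.42, which was -0.11 without the cells with monocyte RNA. In this order of comparisons, 15.9%, 21.3% and 10.1% of all genes were called in either direction, with all-gene medians of -0.10, -0.28 and -0.13.

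Ifitm1 (ENSMUSG00000025491, GRCm38 chromosome 7, 140967221 to 140969825), a membrane protein that restricts virus entry, had 12479 CPM in scratch-positive, 7017 CPM in scratch-negative and 1041 CPM in control cells. Single cells had medians of 137, 53.6 and 3.995 CP10K and highest values of 309, 341 and 87.7 CP10K, and 27 of 28, 93 of 101 and 53 of 85 cells carried it. The ratios were 1.78 (1.64 to 1.92) between the tumour libraries, 11.99 (10.4 to 13.9) for scratch-positive and 6.74 (5.91 to 7.72) for scratch-negative against control. Outside the gate Ifitm1 was at 61.0, 79.6 and 17.97 CPM. Ifitm1 was also higher than in control in other neutrophil classes of both tumour libraries, so this rise was not particular to late neutrophils. Over all depths Ifitm1 had 1686, 2080 and 345 CPM in Mmp8-positive and 4400, 4479 and 1041 CPM in Ccl3/Ccl4-high barcodes. Its neighbours Ifitm2 and Ifitm3 also rose against control in both tumour libraries, with 6709, 4234 and 2516 CPM for Ifitm2 and 2386, 2308 and 1281 CPM for Ifitm3. These 3 genes are similar in sequence, so reads may have been divided among them in ways not visible in the counts.

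Gbp2, a guanylate-binding protein induced by interferon gamma, had 448 CPM in scratch-positive, 439 CPM in scratch-negative and 46.4 CPM in control cells, and Irf1, the transcription factor upstream of many such genes, had 564, 418 and 59.0 CPM. Both were called higher in each tumour library against control, with Gbp2 ratios of 9.67 (4.73 to 21.3) and 9.47 (5.14 to 19.4), and neither was called between the tumour libraries. Isg15, a ubiquitin-like protein, had 1070, 954 and 510 CPM. With the limit of 1000 detected genes the scratch-positive ratio of Isg15 to control became 0.788 and was not called.

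Rsad2, the antiviral enzyme viperin, went the other way, with 1 UMI in 1 of 28 scratch-positive cells, 101 UMIs in 26 of 101 scratch-negative cells and 55 UMIs in 17 of 85 control cells. The scratch-positive ratio was 0.0470 against scratch-negative (0.00118 to 0.268) and 0.0624 against control cells (0.00155 to 0.362). A further 3 type I interferon genes had no scratch-positive UMI, Ifit2 against 23 UMIs in scratch-negative and 0 in control cells, Ifit3 against 24 and 10, and Oasl1 against 28 and 17. Ifit1 had 2, 43 and 21 UMIs. Their scratch-negative UMIs lay in few cells, 6 for Ifit2, 7 for Ifit3, 16 for Oasl1 and 13 for Ifit1, and the Ifit1 and Ifit2 calls were lost without the 4 deep cells. Ifi27l2a had 709, 1652 and 1159 CPM.

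**Figure D3:**
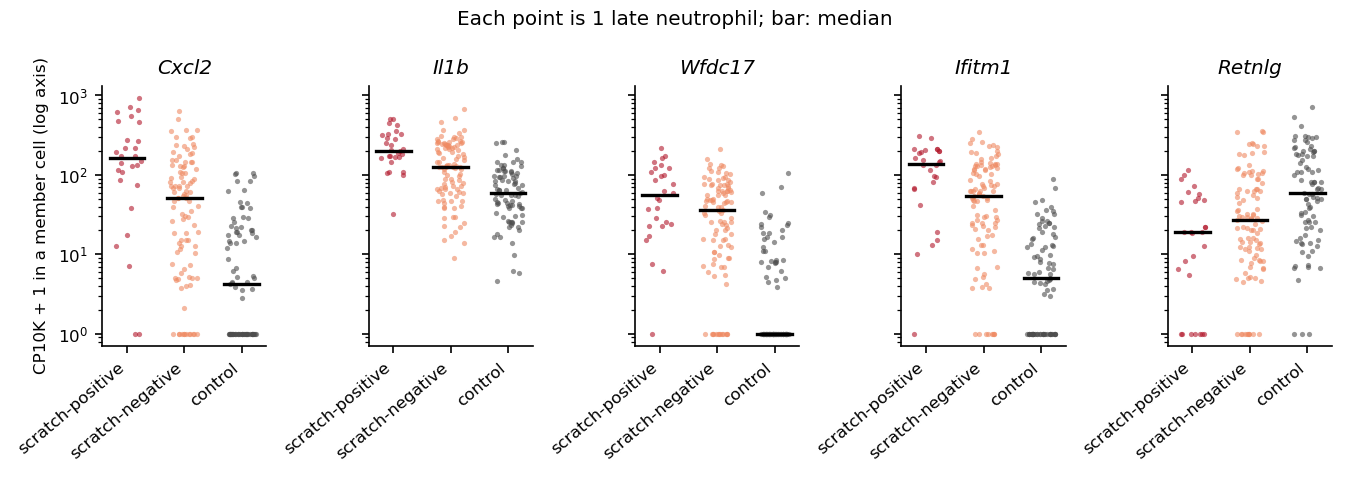
Each point is 1 late neutrophil, plotted as CP10K plus 1 on a log axis for 5 genes, with the scratch-positive, scratch-negative and control libraries side by side and a bar at the median. The Cxcl2, Il1b, Wfdc17 and Ifitm1 medians step down across the 3 libraries (for Cxcl2, 160, 50.2 and 3.19 CP10K) and that of Retnlg steps up, with wide overlap of single cells.

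Wfdc17 (ENSMUSG00000069792, GRCm38 chromosome 11, 83703991 to 83706268), the marker gene outside the rule that varied most, had 6767 CPM in scratch-positive, 4289 CPM in scratch-negative and 733 CPM in control cells. Its ratios were 9.23 (7.74 to 11.0) and 5.85 (4.99 to 6.89) for the tumour libraries against control. Between the tumour libraries it was 1.58 (1.42 to 1.753), but 1.35 and not called under TMM scaling. A median control cell had 0 CP10K, against 54.1 in scratch-positive and 35.6 in scratch-negative cells. In barcodes outside the gate Wfdc17 was at 17.1, 80.3 and 98.9 CPM, which runs against the order seen in the late neutrophils. Other neutrophil classes also had more in both tumour libraries than in control. Over all depths Mmp8-positive barcodes had 881, 1608 and 206 CPM and Ccl3/Ccl4-high ones 2976, 4138 and 350 CPM.

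Stfa2l1 (ENSMUSG00000059657, GRCm38 chromosome 16, 36156811 to 36161953), the other marker outside the rule, was level at 578 CPM in scratch-positive (413 to 788), 533 CPM in scratch-negative (457 to 619) and 569 CPM in control cells (477 to 673). Over all stefins, 101, 564 and 276 UMIs lay in 15 of 28, 46 of 101 and 26 of 85 cells, and the 5 richest cells held 65.3%, 39.2% and 59.1% of them. The stefin genes are near copies of each other, so counts of single members such as Gm5483 (781, 945 and 464 CPM) and Stfa1 (28.9, 125 and 126 CPM) are uncertain. Slpi, the secretory leukocyte protease inhibitor, had 3427, 2853 and 3654 CPM and was not called in any comparison.

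Several granule protein genes were lower in scratch-positive cells. Of specific granule genes, 0 of 9 were higher and 3 lower against scratch-negative cells (median -0.70), and 1 of 8 higher and 3 lower against control (median -0.83), while 0 of 11 were higher and 1 lower in scratch-negative against control cells (median 0.08). Among all genes 10.1%, 21.3% and 15.9% were called in either direction, and the last list count was under that share. Lyz2, lysozyme, had 665 CPM in scratch-positive, 3307 CPM in scratch-negative and 3881 CPM in control cells. It was found in 14 of 28, 87 of 101 and 83 of 85 cells with medians of 1.49, 11.7 and 27.1 CP10K. Its scratch-positive ratios were 0.201 (0.146 to 0.270) and 0.171 (0.125 to 0.230). Scratch-negative against control it was 0.852 and not called, but 0.540 and called lower without the cells with monocyte RNA. Outside the gate Lyz2 stood at 234, 821 and 3283 CPM, in the same order. Mmp8-positive barcodes had 3061, 3732 and 7331 CPM and Ngp/Camp-high ones 6176, 7755 and 9373 CPM, again in this order. Ccl3/Ccl4-high barcodes had 2811, 2052 and 6700 CPM. The part of free RNA in the difference was not tested.

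Retnlg (ENSMUSG00000022651, GRCm38 chromosome 16, 48872621 to 48874496), a resistin-like secreted protein of neutrophils, had 2762 CPM in scratch-positive, 7087 CPM in scratch-negative and 12381 CPM in control cells. It was found in 21 of 28, 91 of 101 and 82 of 85 cells, with medians of 18.1, 26.1 and 58.9 CP10K and highest cells of 116, 360 and 720 CP10K. The ratios were 0.390 (0.334 to 0.452), 0.223 (0.192 to 0.258) and, for scratch-negative against control, 0.572 (0.542 to 0.605), all called lower. Outside the gate its level was 49.9, 128 and 119 CPM, far under that of the late neutrophils. The same order of libraries was seen in Mmp8-positive barcodes, at 10734, 19766 and 29692 CPM. It was also seen in Ngp/Camp-high barcodes, at 3376, 5541 and 7728 CPM, and the part of free RNA was not tested.

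Among gelatinase granule and secretory vesicle genes, 3 of 11 were higher and 2 lower in scratch-positive against scratch-negative cells, 4 and 2 against control, and 1 and 1 in scratch-negative against control cells, with medians of 0.19, 0.09 and 0.03. Without the cells with monocyte RNA the first 2 medians were -0.29 and -0.27. Mmp9, gelatinase B, had 578 CPM in scratch-positive, 1091 in scratch-negative and 1382 in control cells and was called lower in both scratch-positive comparisons (0.530, 0.372 to 0.736, and 0.418, 0.294 to 0.582). Cd14, the lipopolysaccharide co-receptor, had 6189, 3771 and 1804 CPM and was called higher in all 3 comparisons, although the call between the tumour libraries was lost under TMM scaling (1.41) and without the cells with monocyte RNA (1.34). Pglyrp1, a peptidoglycan-binding granule protein, had 535, 893 and 1395 CPM, and Lcn2, the iron-siderophore-binding lipocalin, 1200, 1957 and 1846 CPM. Of the NADPH oxidase, which makes the oxidative burst, 0 of 6 genes were called between the tumour libraries, 3 were lower in scratch-positive against control cells and 2 in scratch-negative against control cells. Ncf1, its p47phox subunit, had 202, 253 and 535 CPM. The NADPH oxidase list had medians of -0.31, -0.77 and -0.41 in the same order of comparisons. Over all genes, 10.1%, 21.3% and 15.9% were called in either direction.

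Among the 12 receptors for the chemokines and lipids that steer neutrophils, 2 of 10 were higher and 0 lower in scratch-positive against scratch-negative cells, 3 of 9 and 1 against control, and 1 of 10 and 2 in scratch-negative against control cells, where 10.1%, 21.3% and 15.9% of all genes were called in either direction. Cxcr2 had 709, 695 and 729 CPM in scratch-positive, scratch-negative and control cells, with ratios of 1.02 (0.733 to 1.39), 0.972 (0.693 to 1.34) and 0.953 (0.779 to 1.17). Ltb4r1, the leukotriene B4 receptor, had 376, 134 and 42.1 CPM from 26, 44 and 10 UMIs and was called higher in each comparison. Cxcr4, the receptor that holds cells in the marrow, had 492, 521 and 851 CPM and was lower in both tumour libraries against control. Ccr1, a receptor for Ccl3 and related chemokines, had 1244, 793 and 775 CPM, and its calls were lost under TMM scaling (1.34 and 1.47).

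Of pattern recognition and Fc receptors, 3 of 16 were higher and 0 lower in scratch-positive against scratch-negative cells (median 0.37), 7 of 15 higher and 2 lower against control (median 0.73), and 3 of 16 higher and 0 lower in scratch-negative against control cells (median 0.44). Calls in either direction took in 10.1%, 21.3% and 15.9% of all genes, and the last list count was near that share. Clec4n, the C-type lectin dectin-2, had 448, 110 and 80.1 CPM, with scratch-positive ratios of 4.08 (2.44 to 6.79) and 5.60 (3.06 to 10.5). Nlrp3, the inflammasome sensor upstream of interleukin 1 beta release, had 998, 735 and 430 CPM and was called higher in each tumour library against control. With the limit of 1000 detected genes neither Nlrp3 call was kept, and the ratios were 1.31 for scratch-positive and 0.963 for scratch-negative against control. Tlr2, a receptor for bacterial lipoproteins, had 318, 476 and 518 CPM and was lower in scratch-positive against control cells (0.614, 0.371 to 0.971).

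Cytokine receptor genes showed unequal change of the 2 chains of one receptor. Csf2rb, the beta chain shared by the receptors for GM-CSF and related cytokines, had 651, 408 and 362 CPM and was called higher in scratch-positive cells against both other libraries, the call against scratch-negative being lost under TMM scaling (1.37). Csf2ra, the alpha chain that binds GM-CSF, had 86.8, 302 and 325 CPM and was called lower against both (0.287, 0.103 to 0.648, and 0.267, 0.0952 to 0.609), from 6 scratch-positive UMIs. Il1rap, the co-receptor of the interleukin 1 receptor, had 361 CPM in scratch-positive, 131 in scratch-negative and 46.4 in control cells, with UMIs in 16 of 28, 32 of 101 and 8 of 85 cells. Socs3, the feedback inhibitor of STAT3 signalling below the G-CSF receptor, had 839, 390 and 80.1 CPM and was higher in each comparison. Over the whole list of colony-stimulating factor and cytokine receptor genes, 4 of 20 were higher and 1 lower, 3 of 18 and 2, and 2 of 19 and 1, in the scratch-positive against scratch-negative, scratch-positive against control and scratch-negative against control comparisons. In the same order, the list medians were 0.06, -0.06 and 0.12, and 10.1%, 21.3% and 15.9% of all genes were called in either direction.

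Of genes that other work has tied to tumour-associated neutrophils, about as many as not were called higher in each tumour library against control, 10 of 17 higher and 2 lower in scratch-positive (median 1.15) and 9 of 18 higher and 2 lower in scratch-negative cells (median 0.63). Between the tumour libraries 6 of 18 were higher and 3 lower (median 0.21, or -0.01 under TMM scaling). The shares of all genes called in either direction were 21.3%, 15.9% and 10.1% in this order of comparisons. Cd274, the checkpoint ligand PD-L1, had 231 CPM in scratch-positive, 174 in scratch-negative and 37.9 in control cells, from 16, 57 and 9 UMIs, with ratios to control of 6.1 (2.54 to 15.7) and 4.58 (2.25 to 10.5). Plaur, the urokinase receptor, had 1619, 887 and 594 CPM. Spp1, osteopontin, had 1142, 576 and 211 CPM, but barcodes outside the gate held 3212, 1430 and 563 CPM in the same order, and the part of their free RNA was not tested. Vegfa, the vascular growth factor, was lower against control, with 1, 28 and 47 UMIs.

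Among survival genes, 3 of 19 were higher and 0 lower in scratch-positive against scratch-negative cells, 6 of 19 and 0 against control, and 4 of 22 and 1 in scratch-negative against control cells. The list medians were 0.16, 0.47 and 0.25, where 10.1%, 21.3% and 15.9% of all genes were called in either direction. The 3 genes higher against scratch-negative cells were copies of Bcl2a1, an inhibitor of apoptosis of the BCL2 family. Bcl2a1b had 1142, 351 and 253 CPM, Bcl2a1a 347, 30.5 and 54.8 CPM and Bcl2a1d 275, 76.2 and 29.5 CPM in scratch-positive, scratch-negative and control cells. The copies are near-identical, so their single counts are uncertain. Mcl1, the family member that neutrophils depend on, had 2834, 2634 and 1968 CPM and was not called in any comparison. Of hypoxia and glycolysis genes, 2 of 24, 8 of 20 and 6 of 24 were higher and 1, 1 and 2 lower, in the same order of comparisons, with Gapdh at 1345, 1149 and 708 CPM. The medians of this list were -0.01, 0.45 and 0.26, beside the same shares of all genes called.

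Genes that respond to tissue dissociation and stress moved with the same libraries: 3 of 14 were higher and 0 lower in scratch-positive against scratch-negative cells (median 0.26), 7 of 13 and 0 against control (median 0.64), and 6 of 13 and 1 in scratch-negative against control cells (median 0.60). All genes together had 10.1%, 21.3% and 15.9% called in either direction. Egr1, an immediate early transcription factor, had 723, 338 and 42.1 CPM, with scratch-positive ratios of 2.14 (1.499 to 3.01) and 17.2 (8.60 to 37.9). Junb had 3817, 2426 and 1951 CPM and Dusp1, a MAP kinase phosphatase, 1822, 1488 and 691 CPM. Handling of the tissue before sequencing can raise the same genes, as it can Cxcl2, Ier3, Nfkbia and Zfp36, and its part in their differences was not tested.

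**Figure D4:**
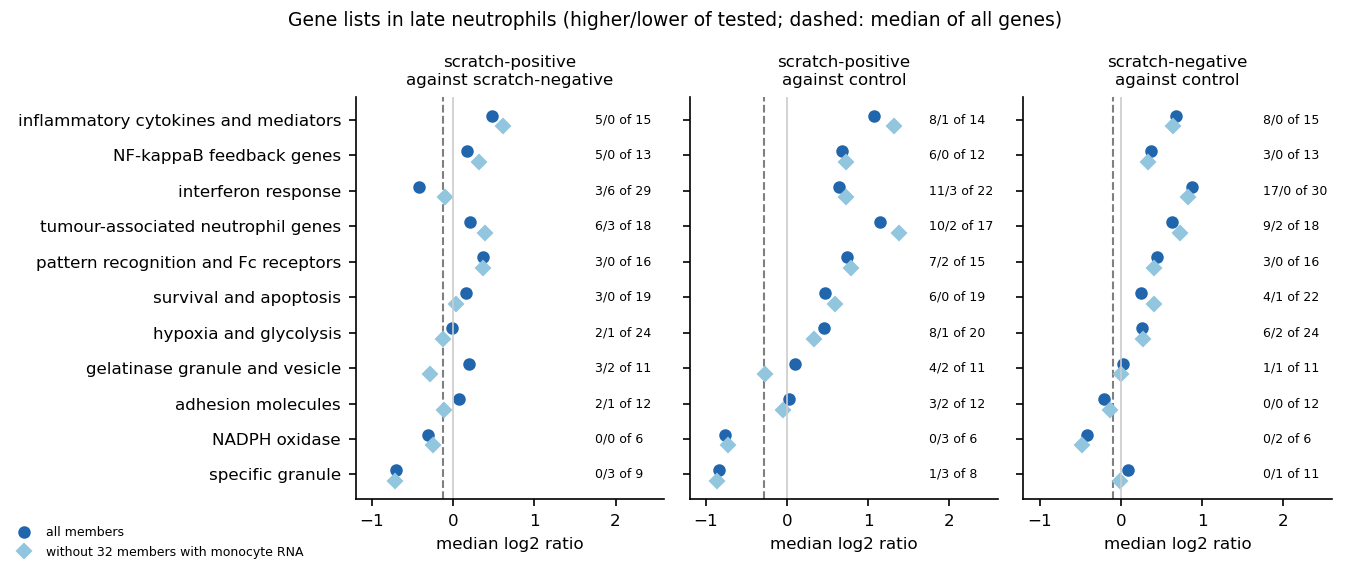
Median log2 ratio of each gene list in late neutrophils for the 3 comparisons, for all 214 cells and without the 32 cells with monocyte RNA, with the counts called higher and lower of those tested beside each row and a dashed line at the median of all genes (-0.13, -0.28 and -0.10). Specific granule and NADPH oxidase genes lie left of the dashed line in both scratch-positive panels, and inflammatory cytokines lie right of it in all 3.

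Several genes with large ratios are abundant in other cells of the same libraries. Vim, the intermediate filament vimentin, had 1648 CPM in scratch-positive, 558 in scratch-negative and 75.9 in control cells, while barcodes outside the gate held 8542, 4083 and 524 CPM. S100a10, a partner of annexin A2, had 51, 61 and 0 UMIs in late neutrophils and was at least 58.3-fold higher in scratch-positive and at least 14.7-fold higher in scratch-negative than in control cells, taking 3 UMIs as the limit over the control cells; the exact 95% intervals of these ratios began at 45.7 and 11.6. In the tumour libraries 66.7% and 50.8% of its UMIs were in 1 cell each, and barcodes outside the gate held 2560, 1213 and 407 CPM. Cd74, the invariant chain of MHC class II, had 636, 174 and 29.5 CPM, with all 3 calls lost without the 4 deep cells. The highest ratios of scratch-negative against control cells included Fn1 (116 UMIs in 4 cells), Pf4 (215 UMIs in 4 cells), C1qb (95 UMIs in 1 cell) and Arg1 (67 UMIs in 1 cell), genes of macrophages and platelets with counts in few cells. The part of free RNA or of 2 cells in 1 droplet was not tested for these genes.

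Genes lower in both tumour libraries against control included several signalling genes. Rgs2, a brake on G protein signalling, had 101 CPM in scratch-positive, 244 in scratch-negative and 582 in control cells. Rassf3, a Ras association domain protein, had 0, 43 and 72 UMIs, at least 6.99-fold lower in scratch-positive than control cells with 3 UMIs as the limit over the cells, where the exact 95% interval of the ratio reached up to 0.18. Ltb, lymphotoxin beta, had 72.3, 229 and 464 CPM, and Trpm2, a calcium channel opened by oxidative stress, had 2, 16 and 43 UMIs. Cd300lb, an activating myeloid receptor, had 5, 38 and 70 UMIs. Other genes by the same naming rule lower in scratch-positive cells were Arhgap45, Smim4, Ndufa3 and Cwc25 against control and Itm2b against scratch-negative cells, with scratch-positive CPM of 28.9, 14.5, 57.8, 202 and 550.

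Beside other mature S100a8/S100a9-high barcodes, late neutrophils were set against Mmp8-positive ones, which met the same Ngp and Camp and Ccl3 and Ccl4 limits, and against Ccl3/Ccl4-high ones. The same rule separated all 3 classes, so these values are a description. To bring depth closer, barcodes of 2000 to 4000 UMIs were used, with 15, 69 and 69 late neutrophils, 76, 285 and 397 Mmp8-positive and 92, 127 and 15 Ccl3/Ccl4-high barcodes in the scratch-positive, scratch-negative and control libraries. Within this range late neutrophils had medians of 2349, 2755 and 2813 UMIs, against 3188, 3280 and 3260 UMIs in Mmp8-positive barcodes, so depth was brought closer but not made equal. Late neutrophils were at least 1.5-fold higher than Mmp8-positive barcodes in all 3 libraries for 93 of 2262 genes and lower for 60, and against Ccl3/Ccl4-high barcodes for 65 and 59 of 1845.

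Retnlg was lower in late than in Mmp8-positive neutrophils in every library, with 3664 against 28948 CPM in the scratch-positive, 6649 against 21177 CPM in the scratch-negative and 12003 against 26067 CPM in the control library. Cxcl2 was higher, with 37356 against 8324, 6801 against 4334 and 1729 against 902 CPM. Tnfaip2, which was level between libraries, had 2519 against 430, 2368 against 1092 and 2058 against 1153 CPM. Further genes higher in late neutrophils in all 3 libraries were Bcl2a1b, Sod2, Traf1, an adaptor of tumour necrosis factor receptors, and Ccrl2, a non-signalling chemerin receptor (356 against 71.6, 491 against 122 and 420 against 111 CPM). Cxcl10, an interferon-induced chemokine, was higher as well, but single cells held 93.8%, 67.0% and 88.6% of its UMIs in all late neutrophils of the scratch-positive, scratch-negative and control libraries. Lower ones included Cd177, a surface protein of mature neutrophils, Prok2, a chemokine-like secreted protein, Ly6c2 and Lrrk2. Late neutrophils of this range held only 39298 UMIs in the scratch-positive library, where Prok2 and Lrrk2 were at 0 CPM. Cybb, the catalytic subunit of the NADPH oxidase, was also lower (25.4 against 118, 45.5 against 177 and 131 against 270 CPM). It does not stand for the NADPH oxidase list of 7 genes. Over all depths that list summed to 2906 against 2819, 3621 against 3180 and 4623 against 3962 CPM, higher in late neutrophils in each library. Stfa2l1 did not separate the classes, at 484 against 388, 526 against 513 and 592 against 646 CPM, nor did Cxcr2, at 585 against 767, 774 against 769 and 718 against 723 CPM.

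Against Ccl3/Ccl4-high barcodes of the same depth, late neutrophils had less Cxcl2 (37356 against 71355, 6801 against 53976 and 1729 against 10612 CPM in the scratch-positive, scratch-negative and control libraries) and less Ccrl2 (356 against 2264, 491 against 1449 and 420 against 657 CPM). The interferon-induced genes Gbp2 and Rsad2 were also lower, with Gbp2 at 153 against 857, 187 against 1557 and 50.6 against 212 CPM and Rsad2 at 0 against 184, 223 against 988 and 243 against 911 CPM. They do not stand for the whole interferon list of 30 genes, which over all depths summed to 27170 against 15477, 20790 against 23271 and 8601 against 12173 CPM. Csf1, the macrophage colony-stimulating factor, had 76.3 against 541, 218 against 977 and 253 against 593 CPM. Il1b was close in the scratch-positive library, at 31630 against 30547 CPM, and lower in late neutrophils in the scratch-negative and control libraries, at 13198 against 23011 and 7266 against 10972 CPM. Retnlg at this depth was higher in late neutrophils, at 3664 against 2292, 6649 against 4554 and 12003 against 9955 CPM, whereas over all depths it was lower, at 2762 against 4674, 7087 against 7439 and 12381 against 25058 CPM. Genes at least 1.5-fold higher in late neutrophils in all 3 libraries included Ifngr1, a chain of the interferon gamma receptor (254 against 136, 218 against 74.9 and 197 against 63.5 CPM), and Arrdc3, an arrestin-domain protein.

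**Figure D5:**
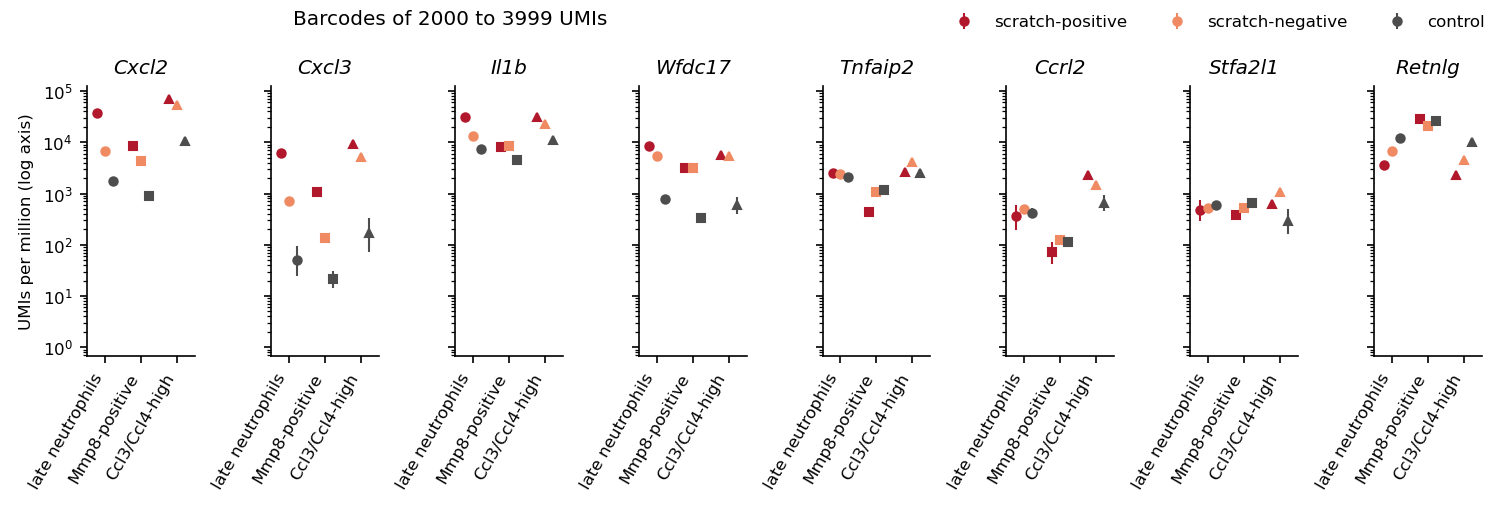
Levels of 8 genes in barcodes of at least 2000 and under 4000 UMIs, in CPM on a log axis with exact 95% Poisson intervals, for late neutrophils (circles), Mmp8-positive (squares) and Ccl3/Ccl4-high barcodes (triangles) of the scratch-positive, scratch-negative and control libraries. Late neutrophils lie between the other classes for Cxcl2, Ccrl2 and Retnlg at this depth, and above the Mmp8-positive class for Il1b, Wfdc17 and Tnfaip2 in each library.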

How the data were processed

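Per the labels' protocols, live CD45+ and CD45– cells of 3 calvaria libraries were sequenced by 10x 3′ chemistry. The deposited matrices hold raw UMI counts per gene and barcode. The file headers name Cell Ranger 6.1.2, and the submitters' processing notes name mm10 as the build. Groups came from the labels, and 0 samples were left without one.

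Barcodes were kept, classed and summed by the rule in the report (Python 3.11.15, numpy 2.4.6, pandas 2.3.3). The members and gene lists were chosen with earlier results of these data known. Ratios carry exact conditional binomial 95% intervals, levels exact Poisson and shares exact Clopper-Pearson intervals (scipy 1.17.1), all for counting error only. List medians use log2 ratios with 0.5 UMIs added, scaled to library size. With 1 library per group no p-value was computed. The calling procedure was run on simulated counts drawn independently for each gene. The simulation held no concentration of UMIs in single cells, so it cannot give the error of calls for genes such as Tnf. A gene was named between libraries when it had at least 50 UMIs and at least 10% of its level outside the gate, taking the 10 with the most extreme interval bound in each direction; members of the fixed lists were named beside them. The comparisons at 2000 to 4000 UMIs were added after the data were seen, and genes named there were chosen from their values. Positions are from GENCODE vM21 on GRCm38. Scrublet was run through scanpy 1.11.5, and figures were drawn with matplotlib 3.10.9.

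Alternatives were other UMI minimums, TMM scaling, a total without rule and mitochondrial genes, equal cell weights, thinning to 2000 UMIs, removal of high Scrublet scores, of cells with monocyte RNA or of deep cells, 1000 detected genes, Ccl6 at 10 CP10K, another denominator and a 2-fold limit. Some genes that these rules name are not reported here.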

Additional observations from a re-analysis of the deposited data

How the results depend on the processing

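No paired analysis was possible because each group had 1 library. With at least 1000 detected genes, which left 4, 20 and 24 cells, the shares of S100a8/S100a9-high barcodes were 0.171%, 0.360% and 0.509% in the scratch-positive, scratch-negative and control libraries. With Ccl6 at 10 CP10K or more they were 0.646% in the scratch-positive and 1.09% in the scratch-negative library, against 1.497% in the control library. Thinned to 2000 UMIs, where some barcodes met the limits only once thinned, they were 1.04%, 1.97% and 2.41%. Of barcodes low in Ngp and Camp they were 5.23%, 8.37% and 8.67%. For scratch-positive against scratch-negative, genes called higher numbered 113 with at least 50 UMIs, 122 under TMM, 117 thinned and 113 with 1000 genes. Genes called lower numbered 84 with 50 UMIs, 274 under TMM, 235 with equal cell weights, 71 thinned, 89 without cells with monocyte RNA and 75 with 1000 genes. For scratch-positive against control, 141, 150 and 185 genes were higher and 175, 160 and 128 lower with 50 UMIs, thinned and with 1000 genes. For scratch-negative against control, 174 were higher with 50 UMIs, 154 thinned, 197 without cells with monocyte RNA and 210 without the 4 deep cells. Genes called lower there numbered 151 with 50 UMIs, 190 thinned, 176 with 1000 genes and 184 at 2-fold. Under TMM scaling the median log2 ratio of all genes was -0.35 and -0.40 in the scratch-positive comparisons, against -0.13 and -0.28. With 1000 genes, log2 ratios turned sign between the tumour libraries for Cxcl3 (-0.36), Ifi27l2a (0.29), Rgs2 (0.17) and Spp1 (-0.27). Scratch-positive against control they turned for Anxa1 (-1.40), Ccr1 (-0.21), Cxcl10 (-5.66), Hcar2 (-1.72), Ifi27l2a (0.40) and Isg15 (-0.34). Scratch-negative against control they turned for Bcl2a1d (-0.17), Cxcl10 (-1.57) and Nlrp3 (-0.054). Fewer cells and genes entered the 50 UMI, thinned and 1000-gene counts by construction, and for the other changes the cause was not tested. Depth limits how far 0 Mmp8 UMIs can be read as absence of Mmp8 RNA.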
